A study of Mus musculus with 21 samples.

Results

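The regions described here are 42005 peaks of CHD4 binding that one of 3 deposited peak lists, Rep1, held alone. A peak was taken where it lay on chromosomes 1 to 19 or X and shared no base pair with any peak of the Rep2 or Rep3 lists. These peaks made up 49.9% of the 84232 peaks of the Rep1 list, and the 3 lists together held 195114 peaks. Of the other Rep1 peaks, 22796 (27.1%) overlapped peaks of both other lists, 12548 (14.9%) a Rep2 peak alone and 6883 (8.17%) a Rep3 peak alone. The members were chosen from the lists themselves, so their number, scores, widths and positions are given as a description, with no test. Measurements of RNA were not used to choose them, and those are tested.

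CHD4 binding was mapped by chromatin immunoprecipitation and sequencing in wild-type hearts of CD1 mouse embryos at embryonic day (E) 10.0, with a mouse monoclonal antibody to CHD4. The series text counts 2 biological samples and 3 technical replicates, so the 3 lists are not 3 independent samples, and the labels do not say which lists share hearts. Rep1 had an input library of its own and Rep2 and Rep3 shared another; the inputs were not analysed here. A peak in Rep1 alone is therefore a peak in a single list with no replicate, and the sample, its input and the antibody reaction cannot be told apart. RNA was sequenced from hearts of CD1 embryos of genotype Chd4 flox/flox (flox, the control) and of hearts with both floxed alleles recombined (null). There were 5 flox and 5 null libraries at E9.5 and 3 of each at E10.5, and the labels do not name the Cre driver. Sarcomere genes of the heart had a median of 351 RPKM (reads per kilobase of gene, scaled to the size of the library) in flox hearts at E9.5, as a check of the tissue. Chd4 itself stood at 91.2 to 94.6 RPKM in the 5 flox libraries and at 40.7 to 48.8 in the 5 null libraries at E9.5, with no overlap (log2 change -1.01 ± 0.0524 SE, limma adjusted p = 1.69e-06). At E10.5 it stood at 67.2, 74.6 and 91.1 in flox and at 48.2, 57.4 and 52.5 in null, again with no overlap, but the change did not pass the test (log2 change -0.55 ± 0.161 SE, adjusted p = 0.116).

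CHD4 is the ATPase that gives the nucleosome remodelling and deacetylase (NuRD) complex its power to move nucleosomes. The complex couples that activity to histone deacetylases and is found at promoters and enhancers, active ones included, where it can hold genes down or tune their level. In the embryonic heart it is known for keeping genes of other muscle types low in cardiomyocytes. A peak caller marks places where immunoprecipitated fragments pile up over the input.

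Sequences are shown for 5 Rep1-only peaks at or just before a gene start, to let the letters under such peaks be read: the Rep1-only peak with the highest score, at Vps26a, and 4 peaks at genes whose RNA differed between null and flox hearts. Each run is up to 250 bases before the annotated start, 5′ to 3′ on the strand of the gene, from RefSeq (GRCm38.p6), cut where the gene's own annotation begins. Capitals mark the letters under the Rep1-only peak. Vps26a, a subunit of the retromer that sorts cargo out of endosomes, is shown at chr10:62486806-62487055 on the minus strand. Slc30a10, a manganese exporter, is at chr1:185454598-185454847 on the plus strand. Grhl1, a grainyhead factor of epithelia, is at chr12:24572037-24572231 on the plus strand. Cited1, a transcriptional coregulator, is at chrX:102252182-102252431 on the minus strand. Rgl3, an exchange factor of Ral GTPases, is at chr9:21989469-21989703 on the minus strand.
Vps26a: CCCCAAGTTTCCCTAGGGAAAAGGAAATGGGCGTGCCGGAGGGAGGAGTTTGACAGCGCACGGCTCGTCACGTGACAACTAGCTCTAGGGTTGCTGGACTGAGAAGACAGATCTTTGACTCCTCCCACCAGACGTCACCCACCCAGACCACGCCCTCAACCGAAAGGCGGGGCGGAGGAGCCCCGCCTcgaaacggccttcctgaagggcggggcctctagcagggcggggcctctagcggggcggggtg
Slc30a10: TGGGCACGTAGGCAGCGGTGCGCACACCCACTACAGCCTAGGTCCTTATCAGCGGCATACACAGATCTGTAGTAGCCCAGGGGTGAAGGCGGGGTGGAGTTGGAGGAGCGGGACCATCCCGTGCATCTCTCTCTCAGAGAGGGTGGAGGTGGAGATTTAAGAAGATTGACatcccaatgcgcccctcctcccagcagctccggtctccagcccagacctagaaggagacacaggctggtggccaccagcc
Grhl1: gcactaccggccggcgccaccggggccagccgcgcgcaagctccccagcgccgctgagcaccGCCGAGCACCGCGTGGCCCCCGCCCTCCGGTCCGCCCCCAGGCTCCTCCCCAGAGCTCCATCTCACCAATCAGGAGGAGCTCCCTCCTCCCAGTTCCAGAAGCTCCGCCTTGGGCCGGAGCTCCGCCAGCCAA
Cited1: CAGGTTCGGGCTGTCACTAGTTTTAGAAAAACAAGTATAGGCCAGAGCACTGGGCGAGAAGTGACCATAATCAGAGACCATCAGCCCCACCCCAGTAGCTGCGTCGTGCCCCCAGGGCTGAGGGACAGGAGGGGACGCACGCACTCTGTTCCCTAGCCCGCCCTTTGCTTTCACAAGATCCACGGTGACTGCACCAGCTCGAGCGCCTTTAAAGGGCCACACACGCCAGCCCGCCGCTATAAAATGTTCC
Rgl3: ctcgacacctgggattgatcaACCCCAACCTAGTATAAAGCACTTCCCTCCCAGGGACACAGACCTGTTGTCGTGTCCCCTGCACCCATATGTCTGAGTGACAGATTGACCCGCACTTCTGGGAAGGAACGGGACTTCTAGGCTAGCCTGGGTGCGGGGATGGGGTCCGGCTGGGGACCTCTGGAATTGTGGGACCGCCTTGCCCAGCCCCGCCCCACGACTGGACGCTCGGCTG
G and C made up 64.4% of the Vps26a run, 60.8% of the Slc30a10 run, 74.4% of the Grhl1 run, 58% of the Cited1 run and 61.3% of the Rgl3 run. The GC box letters GGGCGG, read on both strands, were present in the runs of Vps26a, Grhl1, Cited1 and Rgl3 but not in that of Slc30a10. The TATA box letters TATAAA were present at Cited1 and Rgl3, and CCAAT at Slc30a10 and Grhl1. The CCAAT of Grhl1 lay under the Rep1-only peak and that of Slc30a10 outside it. The Vps26a run also held the CRE letters TGACGT.

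Rep1-only peaks were narrow and of low score. Their median width was 163 bp (10th to 90th percentile 113 to 301 bp), against 433 bp for Rep1 peaks in all 3 lists, 232 bp for those shared with Rep2 alone and 220 bp for those shared with Rep3 alone. Their median score, a whole number deposited by the authors on a scale that is not stated, was 25, against 83 for peaks in all 3 lists. Among Rep1 peaks with a score of 13 to below 20, 79.5% were Rep1-only. That share was 70.4% from 20, 54.5% from 30, 21.8% from 50 and 1.9% from 100, and at a score of 200 or more it was 1 of 3034 peaks (0.033%). The share thus fell at each step of the score. It fell with width as well, from 78.1% of peaks of 100 to below 150 bp to 0.286% of peaks of 1000 bp or more. Since 1 shared bp made a peak shared, a wider peak can touch another list's peak by its width alone. The widths of the classes are therefore partly set by the rule.

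The other lists showed the same shape at a lower level. Peaks found in Rep2 alone numbered 18828 (31% of that list) and peaks found in Rep3 alone 13773 (27.4%), with median widths of 134 and 132 bp. In the lowest score range 58.7% of Rep2 peaks and 54.6% of Rep3 peaks stood in no other list, and from 50 to below 100 the shares were 10.6% and 8.27%. Rep1 was also the longest list: 62.6% of Rep2 peaks and 64.6% of Rep3 peaks overlapped a Rep1 peak, while 45.6% of Rep2 peaks overlapped a Rep3 peak. With the Rep1 list shortened to the length of the Rep3 list by score, an alternative chosen after the data were seen, 16695 peaks were Rep1-only in place of 42005.

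**Figure D1:**
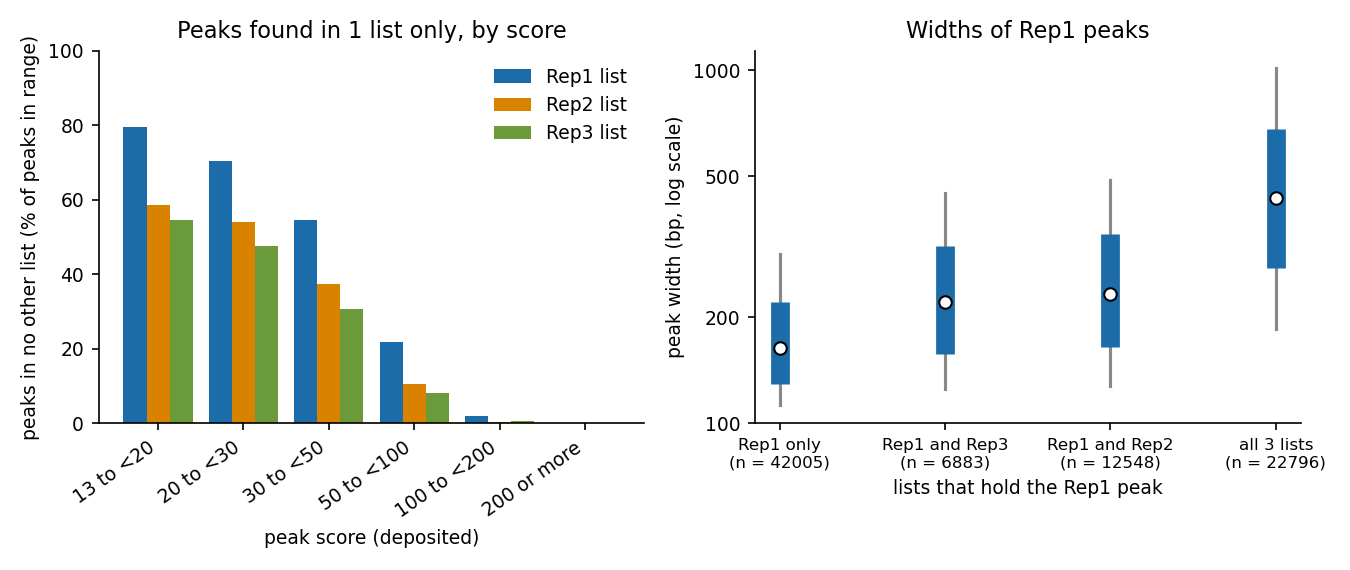
Left, peaks that overlap no peak of the other lists, as a percent of the peaks in each range of the deposited score, for each list. Right, widths of Rep1 peaks on a log axis by the lists that hold them, with the median (circle), the middle 50% (bar) and the 10th to 90th percentiles (line); Rep1-only peaks have a median of 163 bp and peaks in all 3 lists one of 433 bp.

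A few Rep1-only peaks had high scores. The highest, 203, was at chr10:62486868-62487078 (mm10), 63 bp before the start of Vps26a and 1001 bp from the nearest peak of another list. The second, 191, was at chr15:76656951-76657081 within Cyhr1, 2661 bp from such a peak. Scores of 168 were given to chr16:33400339-33400716 in Zfp148, a zinc finger factor, and to chr7:105554195-105554554 in Smpd1, the acid sphingomyelinase of lysosomes. These high peaks were as narrow as 131 to 378 bp. The widest Rep1-only peaks had modest scores: 1432 bp with a score of 40 in Add3 (chr19:53186555-53187986), an adducin of the membrane skeleton, and 1288 bp with a score of 84 in Wwtr1 (chr3:57574024-57575311), which encodes the Hippo pathway coactivator TAZ.

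The rule separated neighbours that were nearly alike. Just inside it were peaks that missed a peak of another list by 1 bp, such as chr4:3875081-3875430 with a score of 157, chr11:119022015-119022439 with 74 and chr17:81447736-81447852 with 74, within Slc8a1. Just outside it were peaks that touched another list's peak by 1 bp, at Pim3 (chr15:88863421-88863556, score 84), in App (chr16:85133399-85133726, score 56) and at Bri3bp (chr5:125441859-125442351, score 56).

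Many Rep1-only peaks lay close to peaks of the other lists without touching them. The nearest Rep2 or Rep3 peak was a median of 1411 bp away (10th to 90th percentile 144 to 23636 bp). It was within 100 bp for 7.08% of the peaks, within 500 bp for 29.8%, within 1000 bp for 43.8% and within 50 kb for 95.7%. Conversely 1804 peaks had no Rep2 or Rep3 peak within 50 kb. A Rep1 peak that was itself shared lay within 1000 bp of 12687 Rep1-only peaks (30.2%).

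Rep1-only peaks lay less often at gene starts than shared peaks did. Of the 40635 on chromosomes with annotated starts, 15.3% were within 1 kb of a start, 58.2% in a gene body and 26.5% between genes. The shares for Rep1 peaks in all 3 lists were 34.8%, 40.7% and 24.5%. Rep2-only peaks were within 1 kb of a start in 11.7% of cases and Rep3-only peaks in 8.78%. The gap stood within ranges of score too: from 30 to below 50, 17.7% of Rep1-only and 22.6% of shared Rep1 peaks were at a start, and from 50 to below 100 the shares were 22.7% and 29.5%. Seen from the starts, 26.6% of the Rep1 peaks within 500 bp of one were Rep1-only, and 51.8% to 56.3% of those at any greater distance. By chromosome the Rep1-only share of Rep1 peaks ran from 44.6% on chromosome 17 to 58.5% on X, with a median score of 25 on each of the 20 chromosomes.

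Single genes held many Rep1-only peaks in their bodies. Of 20385 protein-coding genes with RNA values and coordinates, 9205 (45.2%) held at least 1, 425 held 10 or more and 129 held 20 or more. Overlapping genes count the same peaks more than once. In the protocadherin gamma cluster on chromosome 18, the body of Pcdhga2 (29 peaks) lies within that of Pcdhga1 (30 peaks), and further genes of the cluster overlap them. The genes named in this paragraph and the next were chosen after these counts were seen, and not every gene with as many is named. Ryr2, the calcium release channel of the sarcoplasmic reticulum, held the most: 132 Rep1-only peaks over its 554 kb, beside 44 Rep2-only peaks, 56 Rep3-only peaks and 25 Rep1 peaks in all 3 lists. Palld, an actin-bundling protein of stress fibres and Z-discs, held 127 over 391 kb, and Ttn, the giant spring of the sarcomere, 93 over 279 kb. Pakap, a joined locus of paralemmin and A-kinase anchor genes, held 98 over 463 kb. Slc8a1, the sodium-calcium exchanger, held 75, and differed from the others in holding 203 Rep1 peaks in all 3 lists. The splicing factors Rbm20, which acts on titin transcripts, and Rbpms held 59 and 52. The Hippo pathway factor Tead1 held 54, and Cacna1c, the pore of the cardiac L-type calcium channel, 41. The ranking also held genes of other roles: Nfib, a nuclear factor I gene, held 63, the junction scaffold Magi1 53, the cytoskeletal linker Macf1 46 and Gse1 45.

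Long genes can hold more peaks by length alone, and per 10 kb another set led. Tbx20, a T-box factor of the heart, had 5.42 Rep1-only peaks per 10 kb (29 in 53.5 kb) and Ldb3, a Z-disc protein, 5.34 (34 in 63.6 kb). They were followed by the imprinted growth factor receptor Igf2r with 4.93 (43), the BMP inhibitor Smad6 with 4.49 (31) and Tbx5, the T-box factor of atria and left ventricle, with 3.72 (33). All protein-coding bodies together had 2.71 per 100 kb. The same places stood out in a grid of 100 kb windows, where the largest numbers were 41 over Rbpms, 40 and 39 over Igf2r and its neighbours, and 38 each over Tbx5, Tbx20, Ccdc141 and one end of Palld.

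Within these bodies the Rep1-only peaks were spread among other peaks, and in some they were wider or higher than the medians of 163 bp and 25 over all Rep1-only peaks. The median width was 171 bp over Ryr2, 188 bp over Ttn, 193 bp over Slc8a1 and 216 bp over Tbx20, and 155 bp over Igf2r. The median score was 25 over Ryr2 and Ttn and 32 over Slc8a1, Tbx20, Tbx5, Igf2r, Smad6 and Rbpms. Over Ryr2 the scores ran from 13 to 99, and the median gap from one to the next was 2548 bp. Over Slc8a1 the scores ran from 13 to 141, and 93.3% of the 75 peaks lay within 1 kb of a Rep2 or Rep3 peak. That share was 84.9% for Ttn, 88.5% for Rbpms and 88.4% for Igf2r. It was 54.5% for Ryr2 and 34.1% for Cacna1c, so these longer bodies held more Rep1-only peaks away from the peaks of other lists.

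**Figure D2:**
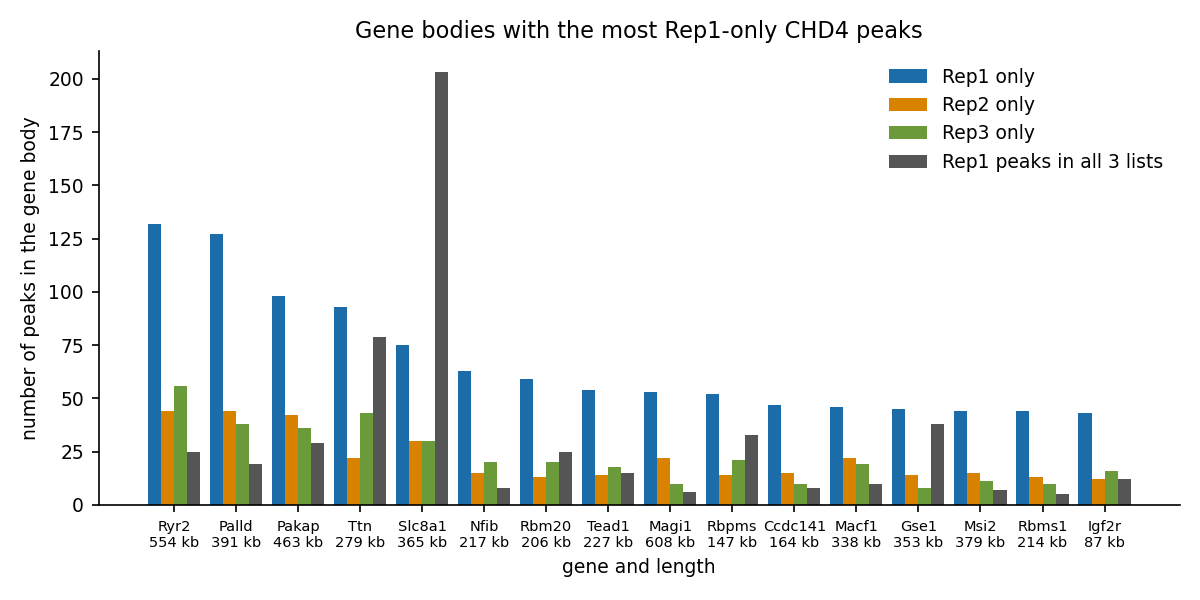
Number of peaks in the bodies of 16 of the genes that held the most Rep1-only peaks, by the lists that hold the peak, with the length of each gene in kb. Ryr2 holds 132 Rep1-only peaks, and Slc8a1 is the gene where the 203 peaks in all 3 lists outnumber the Rep1-only ones most.

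The density over gene bodies was counted for 17 gene lists. The cardiac sarcomere list had 21.1 Rep1-only peaks per 100 kb of gene body (226 peaks in 18 of 25 genes), the cardiac transcription factors 16.3 (185 peaks in 19 of 20 genes) and the calcium handling and ion channel list 13.1 (334 peaks in 16 of 17 genes). Besides Ttn and Ldb3, the sarcomere peaks lay in Actn2, the alpha-actinin of the Z-disc (19), Myom1, myomesin of the M-band (12), and Tpm1, tropomyosin (11), while Myl3, Tnnc1, Mybpc3, Xirp1, Myom2, Myoz2 and Des held none. Among the transcription factors Zfpm2 (32), Gata4 (20), Mef2c (16) and Mef2a (14) followed Tbx5 and Tbx20. Atp2a2, the cardiac calcium pump, held 19 and Jph2, which ties the sarcoplasmic reticulum to the cell membrane, 16.

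The remaining lists, of general functions and of other tissues and cell types, had fewer. All but the neuronal and the olfactory and vomeronasal lists still stood above the 2.71 of all protein-coding bodies. The densities per 100 kb were 9.31 for housekeeping genes, 8.77 for erythroid genes, 6.71 for smooth muscle, 6.29 for cushion mesenchyme, 6.07 for polycomb, 5.82 for cell cycle, 5.19 for NuRD subunits and 5.01 for Notch, neuregulin and BMP signalling. They were 4.8 for endothelium, 4.6 for epicardium, 4.44 for the skeletal sarcomere, 4.06 for foregut and liver and 1.19 for neuronal genes. The olfactory and vomeronasal receptors, which are silent in heart, had 0.151, with a Rep1-only peak in 9 of 1453 bodies. Rep2-only peaks over the cardiac sarcomere bodies had a density of 5.22 and Rep3-only peaks one of 7.18, so peaks of a single list lay densely there in each list. Shared peaks did so too. Rep1 peaks in all 3 lists had a density of 16 over the cardiac sarcomere and 9.01 over the cardiac transcription factors. Over the calcium handling and ion channel bodies it was 11.7, against 1.53 over all protein-coding bodies. It was also 15.8 over housekeeping bodies and 9.62 over cell cycle bodies, so dense shared peaks were not particular to the heart lists.

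The density of Rep1-only peaks followed the RNA level of the gene in flox hearts. Bodies of genes under 0.5 RPKM at E9.5 held 0.789 per 100 kb and bodies of genes at 100 RPKM or more held 11.6, with 2.01, 3.81 and 6.74 in the steps between. Rep2-only peaks went from 0.391 to 3.9 and Rep3-only peaks from 0.255 to 3.85 over the same steps. Rep1 peaks in all 3 lists went from 0.38 to 9.87. With RNA levels at E10.5 the Rep1-only densities ran from 0.836 to 10.1. Genes of these steps differ in length and in peaks near their start, which the densities include.

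**Figure D3:**
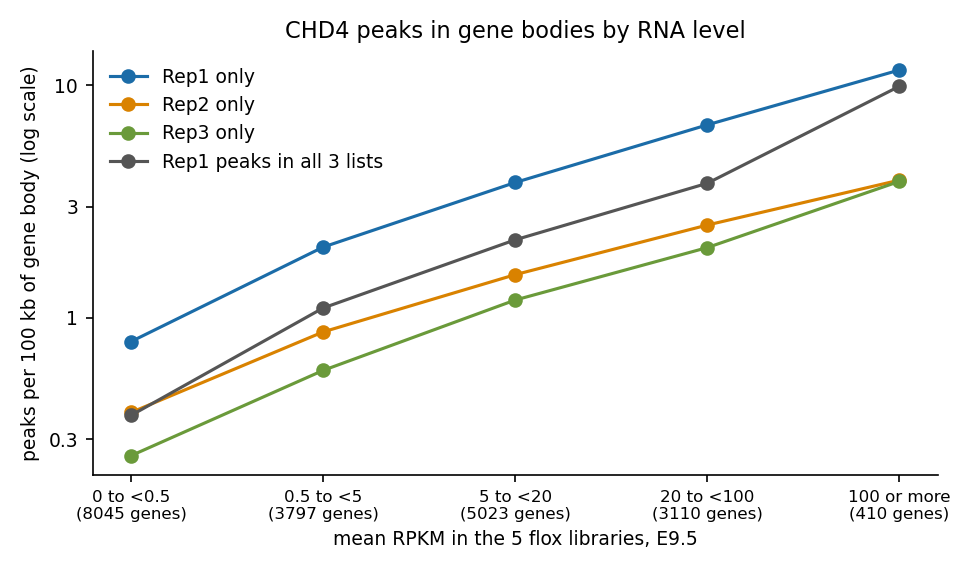
Peaks per 100 kb of gene body, on a log axis, in 5 steps of the mean RPKM of the 5 flox libraries at E9.5, with the number of protein-coding genes per step. The Rep1-only line climbs from 0.789 to 11.6, and the lines of the other classes climb at every step too.

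Genes with many Rep1-only peaks in the body were compared between null and flox hearts. In the E9.5 comparison 17.2% of all 13643 tested genes were called, 6.87% higher and 10.3% lower in null. With the libraries scaled to a common median these shares were 8.44% and 7.54%, so the balance of directions over all genes turned with the scaling. Of the 129 genes with 20 or more Rep1-only peaks, limma called 0 higher and 22 lower in null (17.1%). Some of the 129 overlap one another, as in the protocadherin gamma cluster, so they are not 129 separate loci. At an unadjusted p under 0.05 there were 4 higher and 39 lower, and voom on the recovered reads called 0 higher and 21 lower. Scaling to a common median left 12 lower and gave 2 higher among the 129. Genes with no such peak in the body were called higher in 7.66% and lower in 10.6% of 4762 tested cases. At E10.5, where 2.07% of 14100 tested genes were called (1.77% higher, 0.305% lower), limma and voom each called 0 of the 129 in either direction, and 0 higher and 6 lower had an unadjusted p under 0.05. The 129 genes had a median of 24.7 RPKM in flox hearts at E9.5 and a median length of 223 kb. All 11180 genes with no such peak had medians of 0.125 RPKM and 10.2 kb, and only 42.6% of them were tested at E9.5.

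Libraries were left out in turn only for genes that led by number or density of Rep1-only peaks in the body. Among those, 4 kept a fall at E9.5 whichever library was left out. Other list genes named above, such as Actn2, Gata4 and Atp2a2, were not followed in this way. Rbm20 was at 17.9, 18.7, 16.8, 20.2 and 18.1 RPKM in flox and at 14.4, 11.8, 13.5, 15.2 and 12.6 in null. No null library reached the lowest flox library (log2 change -0.43 ± 0.0763 SE, adjusted p = 0.00399). Palld fell by 0.24 on the log2 scale (adjusted p = 0.0101), Rbpms by 0.29 (0.00911) and Cacna1c by 0.28 (0.0167), and in each the libraries of the groups did not overlap. These 4 calls ended with the level of erythroid genes as a covariate (adjusted p = 0.185 to 0.524). That level was itself higher in null hearts, with 59.8% of its variance between the genotypes at E9.5, so this setting takes up part of the difference between genotypes and blood and genotype cannot be told apart by it.

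Pakap, Slc8a1, Erbb4, Smad6 and Tbx5 were also called lower at E9.5, with log2 changes of -0.25, -0.22, -0.30, -0.39 and -0.27. These 5 calls each ended without flox 1, flox 2, flox 3 or null 5, and some also without flox 4, flox 5, null 2, null 3 or null 4 (adjusted p = 0.0505 to 0.793 over the settings that ended them). Ryr2 was at 25, 25.5, 23.5, 26.4 and 26.3 RPKM in flox and at 24.2, 20.5, 23.8, 26.8 and 22.5 in null. The groups overlapped and the difference did not pass the test (log2 change -0.11 ± 0.0691 SE, adjusted p = 0.312). At Ttn the values overlapped as well, at 9.55 to 14.9 in flox and 7.64 to 14 in null (adjusted p = 0.293).

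At gene starts, Rep1-only peaks seldom stood alone. An annotated start was found for 18133 of 24509 genes (74%), 663 of them by an older symbol. A Rep1-only peak lay within 5 kb of the start of 7712 genes, and 6679 of these (86.6%) had another CHD4 peak in the same window. The remaining 1033 genes (5.7% of those with a start) are called Rep1-only genes here. The class rests on that window alone, and the rest of a gene body could hold shared peaks. The body of Eng held 6 Rep1 peaks in all 3 lists, and those of Sypl2, Pcsk6 and Lmod1 held 1 each. A peak in all 3 lists was found at 7675 genes (42.3%), some other peak at 3298 (18.2%) and no peak at 6127 (33.8%). Of the Rep1-only genes 741 had 1 such peak and 292 had more, up to 6. A Rep1-only peak touched the window from 250 bases before to 50 after the start in 392 of them, and covered at least 150 bases of it in 187. If the Rep2 list is left out of the rule, 2463 genes take the place of the 1033, and within 50 kb in place of 5 kb 582 do.

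The Rep1-only genes were expressed at lower levels than genes with shared peaks. In flox hearts at E9.5 their median was 0.844 RPKM (quartiles 0.0758 and 5.28), against 10.5 for genes with a peak in all 3 lists, 2.87 for genes with another peak and 0 for genes with none. Every flox library had 0 reads for 8.13% of the Rep1-only genes and for 51.9% of the genes with no peak. At E10.5 the Rep1-only median was 1.08 RPKM.

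Promoters of Rep1-only genes were intermediate in their letters. Over the 300 bases around the start, their median content of G and C was 58%, between 60.7% for genes with a peak in all 3 lists and 47% for genes with no peak, and 52.7% for all 26794 promoters of the table. The ratio of observed to expected CG pairs had a median of 0.543, against 0.782, 0.2 and 0.392 in that order, and exceeded 0.6 in 45.4%, 75.4%, 9.86% and 36.7% of promoters. Among genes whose RNA was high enough to be tested at E9.5 the order was the same, with medians of 0.649, 0.8 and 0.38. In the 187 promoters with 150 bases or more under the peak the median was 0.652.

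Short motifs were searched on both strands as exact letters, with N for any base, and one stretch could count for more than one motif. The GC box GGGCGG was in 51.6% of Rep1-only promoters, 64.4% of promoters with a peak in all 3 lists, 16.4% of those with no peak and 36.2% of all promoters. The ETS letters CCGGAAG were in 7.84%, 19.1%, 3.1% and 9.2%, so here the Rep1-only promoters stood nearer to those with no peak. CRE letters (TGACGT) were in 7.94%, 13.2%, 3.93% and 7.71%. CCAAT was in 31.9%, 41.8%, 39.9% and 38.1%, the lowest share being that of the Rep1-only promoters. The ETS and CCAAT shares differed in the 187 Rep1-only promoters with 150 bases or more under the peak. There ETS letters were in 15% and CCAAT in 42.2%, both nearer to promoters with a peak in all 3 lists than to those with no peak. The TATA box TATAAA was in 9.39%, 7.06%, 23% and 14.2%, and the GATA letters AGATAA in 7.84%, 6.29%, 16.2% and 11.4%.
For 4 other motifs promoters without a peak had the largest share of these classes and those with a peak in all 3 lists the smallest. The E-box CANNTG was in 69.7%, 61.3%, 79.4% and 72.2%, and the TEAD letters GGAATG in 13.5%, 11.9%, 15.6% and 14.6%. The AP-1 letters TGANTCA were in 6.87%, 4.59%, 12.2% and 7.98%, and the NKX2-5 letters CACTTGA in 3.48%, 1.59%, 4.85% and 3.1%.

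RNA of the Rep1-only genes was compared between null and flox hearts at E9.5. Of the 591 that passed the filter on low values, 119 (20.1%) were called, beside 17.2% of all tested genes, and this share is near the background. By direction 71 (12%) were higher in null, beside 6.87% of all tested genes, and 48 (8.12%) were lower, beside 10.3%. The median log2 change was 0.0268, against -0.0397 over all tested genes. Genes with a peak in all 3 lists were called higher in 4.79% and lower in 12.6% of 6845 cases, and genes with no peak in 17.7% and 4.65% of 774 cases. No test of the difference between these classes was made.

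The shares also differed by the level of the gene in flox hearts. Among Rep1-only genes 19.1% were called higher below 1 RPKM, 14.6% from 1 to below 5, 8.06% from 5 to below 20 and 5.13% from 20. The shares for genes with a peak in all 3 lists were 12.6%, 7.69%, 3.82% and 3.37% over the same steps. For genes with no peak they were 24.8%, 11.8%, 17.5% and 25%, with no steady fall. Calls of lower levels went the other way: 0%, 6.87%, 10.2% and 16.7% of Rep1-only genes, 1.37%, 8.75%, 13.5% and 15.2% of genes with a peak in all 3 lists, and 0.442%, 5.33%, 7.79% and 8.93% of genes with none. Scaling the libraries to a common median gave 86 higher and 38 lower among the Rep1-only genes, beside 8.44% higher and 7.54% lower of all tested genes under that scaling.

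Markers of blood moved with the groups. At E9.5, 11 of 13 erythroid genes were called higher in null, and their summed level was 11003 to 28171 RPKM in flox and 27829 to 75171 in null libraries, with no erythroid gene at 0. With the mean erythroid level as a covariate 10 of the 119 calls remained, all of them rises, and 0.953% of all tested genes were called. The covariate, the mean log2 level of the erythroid genes, was at 5.39 to 6.79 in flox and 6.53 to 7.7 in null libraries, and a call that ended with it does not separate blood content from genotype. In whole hearts fewer cells of a type and less RNA per cell cannot be told apart. Summed endothelial markers were at 431 to 508 RPKM in flox and 455 to 485 in null, and 1 of 15 fell. Epicardial markers summed to 81.3 to 331 and 150 to 451, and limma called 0 of 9 tested, with 0 at an unadjusted p under 0.05. Other marker lists with calls were cushion mesenchyme (1 of 12 fell) and neuronal genes (1 of 6 tested fell). The part of any of these cells in the results below was not tested beyond the erythroid covariate.

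At E10.5 fewer genes passed the test. Of 625 Rep1-only genes tested, 20 (3.2%) were called, beside 2.07% of all tested genes: 14 (2.24%) higher, beside 1.77%, and 6 (0.96%) lower, beside 0.305%. Leaving out flox 1 left 6 of these calls, flox 2 left 9, flox 3 left 5, null 2 gave 10 and null 3 gave 13. Scaling to a common median gave 17 higher and 4 lower, beside 1.89% higher and 0.298% lower of all tested genes under that scaling. Limma called 0 of 13 erythroid genes at this stage, with 1 at an unadjusted p under 0.05, and their summed level was 24304 to 68074 RPKM in flox and 46538 to 142340 in null. Epicardial markers summed to 241 to 280 RPKM in flox and to 327 to 369 in null, with no overlap, and 1 of 10 was called higher, 3 being at an unadjusted p under 0.05. Of the 12 cushion mesenchyme genes 1 was called higher, and their summed level was 391 to 475 in flox and 367 to 539 in null. Foregut and liver markers summed to 4.3 to 183 in flox and to 28.9 to 1388 in null, with 0 of 10 called by limma, 5 at an unadjusted p under 0.05 and none at 0 throughout. The part of these cells in the results was not tested.

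**Figure D4:**
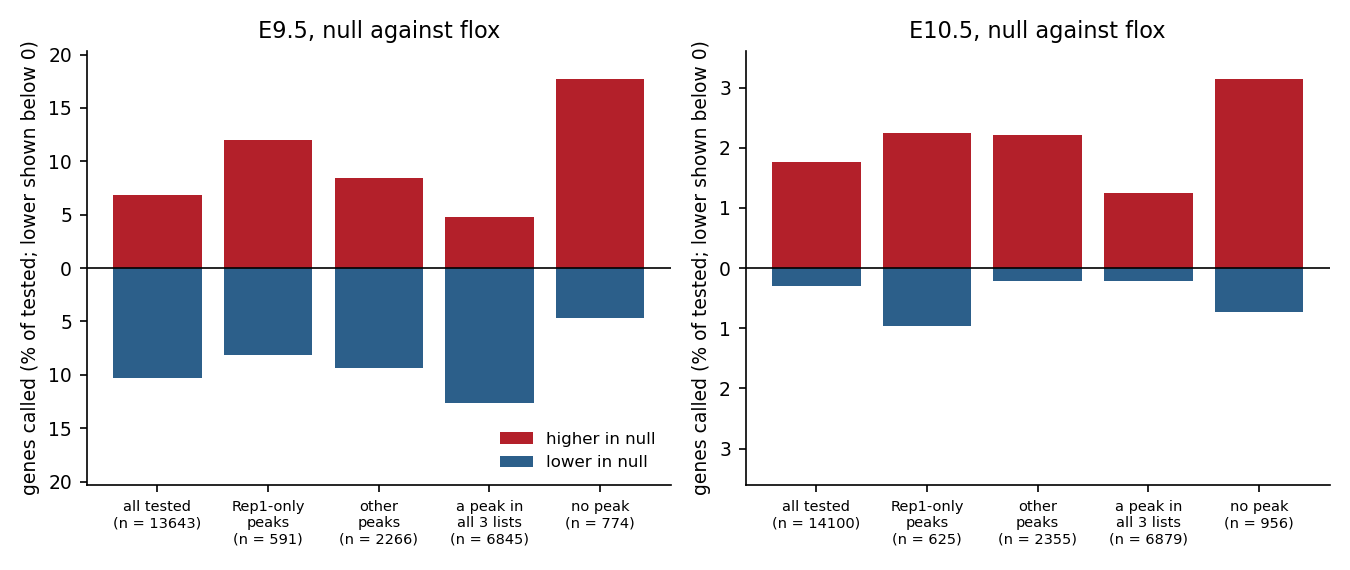
Genes called higher (up) or lower (down) in null by limma, as a percent of the genes tested, for all tested genes and for genes grouped by the CHD4 peaks within 5 kb of their start, at E9.5 (left) and E10.5 (right, a smaller scale). At E9.5 the Rep1-only genes have 12% higher and 8.12% lower, and all tested genes 6.87% and 10.3%.

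Vil1, Atp2a1 and Sypl2 had the largest rises at E9.5 among the Rep1-only genes named by the rule, which asked for no overlap between the groups. Over all tested genes the libraries of the groups did not overlap for 14.1% at E9.5 and for 31.3% at E10.5. Vil1 encodes villin, which bundles actin in microvilli, and its Rep1-only peak of 107 bp and score 25 lay 1416 bp before the start. It was at 2.32, 1.48, 2.12, 0.541 and 1.51 RPKM in flox and at 30, 20.5, 25.6, 21.1 and 20.6 in null at E9.5. At E10.5 it was at 0.144, 0.538 and 0.261 in flox and at 20.9, 19.6 and 16.7 in null. The groups were far apart at both stages (log2 changes 3.58 ± 0.239 and 4.61 ± 0.217 SE, adjusted p = 8.98e-06 and 0.000171).

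Atp2a1 encodes SERCA1, the calcium pump of fast skeletal muscle, and had a pair of Rep1-only peaks of score 56 that lay 2145 and 3059 bp before its start. It was at 7.78, 6.53, 8.59, 7.68 and 7.99 RPKM in flox and at 36.6, 38.9, 40.6, 35.2 and 38 in null at E9.5. At E10.5 it was at 1.66, 1.54 and 1.5 in flox and at 41.5, 23.7 and 26.6 in null. Every null library stood above every flox library (log2 changes 2.23 ± 0.0715 and 3.87 ± 0.217 SE, adjusted p = 5.42e-08 and 0.000288). It was the only one of the 23 skeletal sarcomere genes in the Rep1-only class; 8 of the 15 tested rose at E9.5 and 6 at E10.5.

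Sypl2, mitsugumin 29 of the triad junction of skeletal muscle, had a peak of score 19 inside the gene, 280 bp after the start. Farther into its body lay 1 Rep1 peak in all 3 lists. Sypl2 was at 0.441 to 0.67 RPKM in flox and 3.88 to 6.25 in null at E9.5, and at 0.377 to 0.652 and 4.98 to 5.5 at E10.5. It rose at both stages (log2 changes 2.48 and 2.55, adjusted p = 2.45e-06 and 0.00118). Camkv, a kinase-like protein of neuronal vesicles, rose from a mean of 0.538 ± 0.164 (SD, n = 5) to 2.31 ± 0.458 (SD, n = 5) RPKM at E9.5 (adjusted p = 0.000214). Its E10.5 rise (log2 change 1.55, adjusted p = 0.0321) ended without flox 1, 2 or 3 or null 1 or 2. Defb42, a defensin, rose by 1.30 at E9.5 and by 2.48 at E10.5 on the log2 scale (adjusted p = 0.00182 and 0.00224), on 1 to 44 reads per library.

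Vil1, Sypl2, Atp2a1 and Defb42 kept their E10.5 calls in all 16 other settings, and Vil1, Sypl2, Atp2a1 and Camkv kept their E9.5 calls in all 20. The germline gene Tex19.1 kept its E9.5 call in the 19 settings that tested it, its mean being under a filter of 1 RPKM. It rose from 0.132 ± 0.116 to 1.18 ± 0.237 RPKM at E9.5 (SD, n = 5 each, adjusted p = 0.000275) and had its peak 3693 bp before the start. Also called higher at E9.5 were Slc30a10, from 2.64 to 8.14 RPKM, and the LIM homeobox factor Lmx1a, from 2.06 to 5.82. Their groups overlapped at E10.5 (adjusted p = 0.4 and 0.439). Slc30a10, Lmx1a and Defb42 lost their E9.5 calls with the erythroid covariate (adjusted p = 0.265, 0.472 and 0.159).

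Of the Rep1-only genes named for E9.5, Pcsk6 and Hdc fell most. Pcsk6, a proprotein convertase that matures TGF-beta family ligands, was at 4.73, 9.11, 4.3, 6.87 and 5.73 RPKM in flox and at 1.35, 1.84, 2.04, 1.85 and 1.67 in null. The groups did not overlap at E9.5 (log2 change -1.52 ± 0.176 SE, adjusted p = 0.000366) but did at E10.5 (adjusted p = 0.727). Hdc, which makes histamine, had means of 3.1 RPKM in flox and 0.94 in null and fell by 1.32 on the log2 scale (adjusted p = 0.00149), and its groups also overlapped at E10.5.

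Asb12, Fbxo40, Srpk3 and Hrasls also fell at E9.5. Asb12, an ankyrin repeat protein of a ubiquitin ligase, was at 11.5, 8.17, 8.67, 9.63 and 9.49 RPKM in flox and at 4.88, 3.58, 4.58, 2.79 and 4.14 in null at E9.5, with no overlap (log2 change -1.17 ± 0.136 SE, adjusted p = 0.000401). Fbxo40, a muscle F-box protein, fell from 5.42 to 2.28 RPKM (adjusted p = 0.003) and Srpk3, a muscle kinase of splicing factors, from 12.9 to 6.9 (adjusted p = 0.00881). Hrasls, a phospholipid acyltransferase, fell from 1.34 to 0.573 at E9.5 (adjusted p = 0.00318). Asb12 and Hrasls were called lower at E10.5 too, by 1.35 and 1.46 on the log2 scale.

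Cited1 and Grhl1, whose sequences are printed above, were lower in null at E9.5. Cited1 was at 60, 80.9, 51.3, 80.2 and 61.8 RPKM in flox and at 38.4, 40.7, 46.5, 33.5 and 31.5 in null. No null library reached the lowest flox library (log2 change -0.79 ± 0.141 SE, adjusted p = 0.00406), and at E10.5 the groups overlapped. Its Rep1-only peak, 467 bp wide with a score of 84, covered the whole promoter window and lay 27246 bp from the nearest peak of another list. Grhl1 fell from 5.74 ± 0.516 to 2.94 ± 0.721 RPKM (SD, n = 5 each, adjusted p = 0.00216). All 8 falls named for E9.5 ended with the erythroid covariate (adjusted p = 0.065 to 0.542).

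Further genes were called at E10.5. Kcne3, a potassium channel subunit, was at 1.17, 1.98 and 0.741 RPKM in flox and at 9.88, 6.09 and 4.52 in null (log2 change 2.02, adjusted p = 0.0253). Laptm5, a lysosomal protein of blood cells, was at 2.19, 4.88 and 3.5 in flox and at 11.8, 11.6 and 11.8 in null (log2 change 1.66, adjusted p = 0.0171), and had risen at E9.5 as well (1.18, adjusted p = 0.00341). Rgl3, whose sequence is printed above, rose by 1.45 (adjusted p = 0.0368). Eif5a2, a translation factor, Tmem132c, a membrane protein, Svip, which binds the segregase VCP, and Pter fell by 1.29, 1.24, 0.93 and 0.88 on the log2 scale. The groups overlapped in none of these 7 genes at E10.5. The E10.5 calls of Camkv, Asb12, Hrasls and these 7 genes each ended without flox 3 (adjusted p = 0.0706 to 0.173), and each also without at least 1 of flox 1, flox 2, null 1, null 2 and null 3. With the erythroid covariate all of these E10.5 calls but that of Svip ended (limma adjusted p = 0.0511 to 0.173). The E9.5 call of Laptm5 ended with it as well (adjusted p = 0.304).

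**Figure D5:**
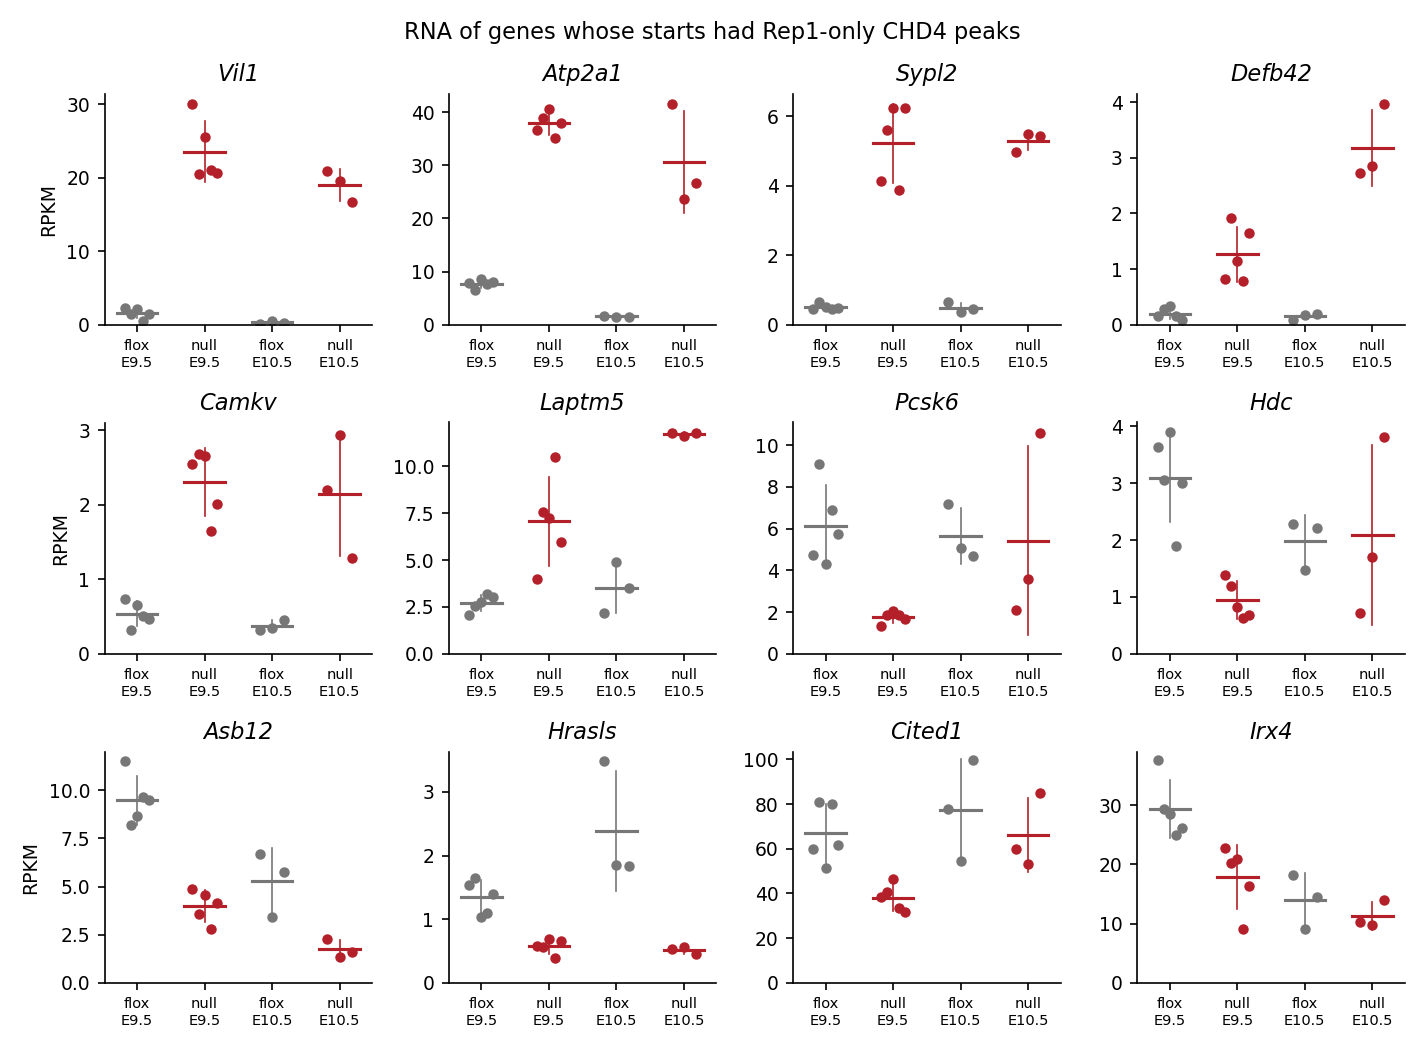
RPKM of each library (points), the group mean (thick line) and ± SD (thin line) for 12 Rep1-only genes, for 5 flox and 5 null libraries at E9.5 and 3 of each at E10.5. Vil1, Atp2a1, Sypl2, Defb42, Camkv and Laptm5 are higher in every null library than in any flox library at both stages, while Pcsk6, Hdc, Cited1 and Irx4 are lower at E9.5 and overlap at E10.5.

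Of all genes with a start 5.7% were Rep1-only genes. Among the olfactory and vomeronasal receptors they were 9 of 1237 with a start, and in each other list 0 to 2 of 6 to 20. No receptor was tested at E9.5, and the 1 receptor tested at E10.5 was not called. Irx4, a factor of ventricular identity, had 4 Rep1-only peaks from 1336 to 4927 bp after its start. It was at 37.6, 29.4, 28.5, 25 and 26.1 RPKM in flox and at 22.7, 20.2, 20.9, 9.05 and 16.4 in null at E9.5, with no overlap. The fall of 0.75 on the log2 scale (adjusted p = 0.0379) ended without flox 1, flox 2, flox 3, flox 5 or null 5 (adjusted p = 0.0594 to 0.091), without a filter (0.0576) and with the erythroid covariate (0.806). Chd5, a paralog of Chd4 that can take its place in NuRD in neurons, had Rep1-only peaks 1473 bp before and 880 bp after its starts. It was below the filter and not tested: the flox libraries at E9.5 were at 0.0296 to 0.0834 RPKM and the null libraries at 0.554 to 0.866, and at E10.5 at 0.0235 to 0.0733 and 0.605 to 1.01, so every null library stood above every flox library.

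Apart from the receptors, the other list members of the class did not pass the test at either stage where tested. They were the smooth muscle gene Lmod1 (log2 changes -0.06 and 0.71), the potassium channel Kcnj3 (-0.42 and -0.75), the cyclin Ccne1 (0.02 and -0.38), the globin Hbb-bt (0.78 and 1.02), the epicardial gene Upk3b (1.02 and 0.01), the endothelial gene Eng (-0.12 and 0.19) and the epithelial gene Epcam (-0.07 and 1.39), at E9.5 and E10.5. The neuronal genes Map2 and Syt1 were below the filter at E9.5. Hbb-bt shares near-identical sequence with other beta-globin genes, so its reads are uncertain. Lmod1 had the highest score of this group, 84, at a peak across its start.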

How the data were processed

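Per the submitters' processing notes the build was mm10 and the tools were MACS2, HTSeq 0.6.2, Bowtie 1.2.0, DESeq2 1.6.3, bedtools 2.25.0 and SAMtools 1.6, with no role given for each. RPKM values and gene lengths in bp were used as the authors deposited them, 1 table per stage, each normalized separately. The peak score is a whole number deposited by the authors for each peak and list, on a scale the sources used here do not give. The authors' own comparison tables and the inputs were not used here. Per the labels the RNA libraries were stranded and polyadenylated, but how the counting treated strand was not stated, so antisense genes cannot be separated.

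Peaks were compared in Python 3.11.15 with numpy 2.4.6 and pandas 2.3.3, and 1 shared bp made a peak shared. Starts, coordinates and promoters came from RefSeq tables of GRCm38.p6, the assembly of mm10. Multiplied by length, 100% of RPKM values came to whole reads (tolerance 0.01). E9.5 libraries held 14.6 to 20 M reads on genes and E10.5 libraries 15 to 16.1 M, which limit precision for low genes, for counting error only. No replicate pair was within sampling noise (chi-square of 9.63 to 95.4 for each degree of freedom). Genes averaging 0.5 RPKM or more were tested on log2(RPKM + 0.5), which understates changes of low genes, with limma 3.58.1 in R 4.3.3, null against flox at each stage, two-sided, with no covariate. Calls needed an adjusted p under 0.05 (Benjamini-Hochberg, over all tested genes). The fit was tested on simulated data with known changes. The p-values measure the spread between libraries that the series text calls biological replicates.

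Named genes were Chd4, per stage up to 8 called Rep1-only genes in each direction, by size of the log2 change, without overlap between the groups, with at least 1 RPKM in a group and no predicted name, and Rep1-only genes of the 17 lists. Of those lists the olfactory and vomeronasal receptors gave no named gene. Named peaks were the highest, the widest and those at the border of the rule. Members, lists, tests and rules were chosen with earlier results of these data known. Other settings were pseudocounts of 0.1 and 1, other filters, scalings and covariates, voom, arrayWeights, single libraries left out, other windows and other rules of overlap. Starts on chromosome 18 were not used here, so its peaks entered no count relative to starts, though they entered those over gene bodies and windows.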

Additional observations from a re-analysis of the deposited data

Results flagged for a closer look

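In 124 groups of 5 libraries, 10 held a library far from the other 4, and chance alone marks about 1 group in 20. All values are RPKM at E9.5. Sypl2 was at 0.67 in flox 2, where the next value was 0.503. Kcne3 was at 4.32 in flox 4 (next 0.565) and at 13.1 in null 4 (next 0.44), so both libraries numbered 4 were high, and it was not called at this stage. Hbb-bt was at 142 in flox 3 (next 13.9), and Upk3b, a marker of epicardium, at 12 in null 1 (next 51.8). Epcam was at 2.02 in flox 4 (next 0.67). Of the genes with many Rep1-only peaks in the body, Nfib was at 4.81 in null 1 (next 9.05), Msi2 at 37.3 in flox 4 (next 33), Foxp1 at 11.6 in flox 1 (next 13.8) and Tbx20 at 68.7 in null 4 (next 94.5). The rise of Sypl2 at E9.5 did not end without flox 2, and the other genes were not called at that stage.

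Outside the chromosomes of the rule, 6 of 32 Rep1 peaks on chromosome Y had no Rep2 or Rep3 peak, and 0 of 7 on the mitochondrial genome, with no control to compare them with.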

How the results depend on the processing

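The number of Rep1-only peaks, 42005, was 23626 where a peak of another list within 1 kb also made a peak shared, 24254 with the upper part of each list by score and 16695 with the Rep1 list shortened to the length of Rep3. It was 48888 without Rep3 and 54553 without Rep2. The 1033 Rep1-only genes were 1475 without Rep3, 2463 without Rep2, 579 with the shortened list and 582 within 50 kb, 215 of them among the 1033. The shortened list and a window at either gene end (1296 genes) were chosen after the data were seen.

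The 119 calls at E9.5 became 10 with the erythroid covariate, 32 within 50 kb and 70 with the upper part of the scores, and ran from 90 to 137 with 1 library left out. The 20 calls at E10.5 became 8 with the erythroid covariate, 91 with arrayWeights (which called 10.1% of all genes), 31 within 1 kb, 5 within 50 kb and 9 with the upper part of the scores, and ran from 5 to 25 with 1 library left out. With no filter 14 rose and 0 fell at E10.5. With the replicate number as a block 171 genes were called at E9.5 and 18 at E10.5 (28.9% and 2.88% of those tested), beside 27.1% and 1.91% of all genes. No source says that the numbers pair the samples, and the correlations were not over 0.1 in every pair, so the block was not used, though some pairing at E9.5 was not excluded: same-numbered flox and null libraries deviated with correlations of 0.451, 0.0417, -0.136, 0.519 and 0.258 at E9.5 and of 0.0509, 0.106 and -0.0299 at E10.5, and 3 of 5 flox libraries at E9.5 correlated best with the null library of their own number. Fewer genes entered with the wider window and the upper scores, and otherwise the cause was not tested. No called gene or count of members changed direction under the settings run, but over all genes at E9.5 the calls went from 937 higher and 1405 lower to 1151 and 1029 with a common median. Single named genes kept their direction and side of the threshold in 1141 cases at E9.5 and 923 at E10.5, lost the call in 79 and 77 and gained one in 14 and 6.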

Other observations

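Developmental regulators outside the lists also held many Rep1-only peaks in their bodies and did not pass the RNA test at either stage. They were chosen after their values were seen. Nfib, a nuclear factor I gene, held 63 Rep1-only peaks and 8 Rep1 peaks in all 3 lists, with a log2 change of 0.41 at E9.5 (adjusted p = 0.273). The RNA-binding gene Msi2 held 44 and 7, the forkhead factor Foxp1 40 and 8, and the homeobox factor Meis1 36 and 11. In Meis1 83.3% of the Rep1-only peaks lay within 1 kb of a peak of another list, and in Msi2 36.4%. The imprinted gene Grb10 and the ubiquitin ligase gene Nedd4, at 449 and 406 RPKM in flox hearts at E9.5, held 33 and 30 Rep1-only peaks in about the same length of body (107 and 87.5 kb).

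Over 16610 windows of 100 kb, the number of Rep1-only peaks had a Spearman rho of 0.632 with that of shared Rep1 peaks, 0.453 with Rep2-only peaks and 0.382 with Rep3-only peaks. Windows share gene density, base composition and, for the first pair, the library, so this is a description. Of the Rep1-only peaks 89% lay in windows with a shared Rep1 peak.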
